A study of Caenorhabditis elegans with 24 samples.

Results

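The genes described here are the F-box B (fbxb) and F-box C (fbxc) families of Caenorhabditis elegans, and the measurement is the level of small RNAs antisense to their mRNAs (siRNAs). The fbxb genes were taken by their symbol, which gave 111 genes of the 20167 in the table, all with distinct values. No gene carried an fbxc symbol in the table, where these genes stand under their sequence names. The fbxc genes were therefore matched by sequence name to the RefSeq symbols, which gave 54 genes. Of these, fbxc-5 held the same values as fbxc-1, fbxc-4 the same as fbxc-2, and fbxc-10 and fbxc-11 the same as fbxc-9, so that 50 distinct genes were left. The families are described apart. RefSeq lists 113 fbxb and 56 fbxc symbols, and annotates 7 of the 111 and 6 of the 50 genes as pseudogenes.

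N2 (the wild type, WT) was compared with hrde-1(tm1200), a mutant that lacks a germline nuclear Argonaute protein in all of its cells and generations. Whole young adults were collected over 12 successive generations. Animals were kept at 15 °C for 3 generations (15C-G1 to G3), at 23 °C for 6 (23C-G1 to G6) and at 15 °C again for 3 (p15C-G1 to G3, "p" for post-heat). Each generation gave 1 library per genotype, 24 in all, from 1 lineage of each genotype, so that the spread behind each p-value is that between generations of the same lineage and not between independent cultures. Because whole animals were used, a lower siRNA level cannot be told apart from fewer cells that make the siRNA.

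F-box proteins are the exchangeable substrate adaptors of the SCF ubiquitin ligases. The F-box binds the SKP1 subunit, encoded in worms by the skr genes, which in turn is held by the cullin CUL-1 together with the RING protein RBX-1, and the rest of the F-box protein picks the substrate to be ubiquitinated. Nematodes carry a large and rapidly changing set of such genes, many in tandem arrays, and for most single members no role is known. In the worm germline, RNA-dependent RNA polymerases copy target mRNAs into antisense siRNAs, which Argonaute proteins bind. HRDE-1 is the one that carries siRNAs into germline nuclei, where the target genes receive H3K9 methylation. The study placed 3 of the genes described here, fbxb-14, fbxb-97 and fbxc-8, on a list of genes whose mRNA rises under heat when HRDE-1 is missing, chosen on mRNA data not used here.

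Levels are in RPKM (antisense reads per kilobase of exon and per 1e6 reads). The values of a library lie at steps whose smallest acts as 1 read. On that reading the libraries hold between 300600 and 1048900 reads, with 371100 to 504900 in WT and 511900 to 775100 in hrde-1 at 15C, and a gene without siRNA sits higher in a shallow library. For this reason the median over all 19839 tested genes is given beside each family. These read numbers are inferred from the scaling of the values and are lower than the mean number of sequenced tags that the paper states. The tests were limma fits on log2(RPKM + 1). A gene was called lower or higher at a fold of at least 2 and an adjusted p of at most 0.1. siRNAs to hrde-1 itself stood at 300 ± 21.5 RPKM in WT and 153 ± 9.30 in the mutant at 15C (SD, n = 3), which does not check the genotype, since siRNA and not mRNA was measured. siRNAs to hsp-16.48, a heat shock gene, rose at 23 °C in both genotypes (log2 fold change 2.31 ± 0.47 SE in WT, adjusted p = 0.0024, and 3.46 ± 0.47 in hrde-1, adjusted p = 3.9e-05).

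Most siRNA of each family fell on a few genes. The median of the mean level was 7.84 RPKM in fbxb and 5.02 in fbxc, against 6.47 over all tested genes. All 111 and 50 genes passed the filter of a mean of at least 1 RPKM, but only 47 fbxb and 19 fbxc genes reached a mean of 10 RPKM, and 12 and 7 reached 100. The highest fbxb genes were fbxb-14 (mean of the 24 libraries 1581 RPKM), fbxb-97 (809), fbxb-85 (586), fbxb-100 (484) and fbxb-24 (365). The highest fbxc genes were fbxc-43 (882), fbxc-37 (252), fbxc-39 (181), fbxc-44 (146) and fbxc-38 (137). fbxc-37 and fbxc-38 are the pseudogenes on chromosome X. The 4 highest genes held 56.2% of the summed mean level in fbxb and 61.5% in fbxc. At the other end, 5 fbxb and 3 fbxc genes never rose above 1 read.

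The chromosomes were taken from the WBcel235 annotation, which is not the build of the alignment, and no positions are given. Of the fbxb genes 62 lie on chromosome II, 16 on V, 11 on I, 10 on IV, 9 on III and 3 on X. Of the fbxc genes 39 lie on chromosome II, 9 on IV and 2 on X. Neighbouring members at most 20000 bases apart formed 17 runs of 3 or more genes, which together held 76 fbxb and 32 fbxc genes, and the longest of these runs held 25 genes. Low values (under 10 steps) lay off whole steps in 24.9% of 825 cases in fbxb, 23.0% of 287 in fbxc and 21.4% over all genes, at a tolerance of 0.1 step. In fbxb 17.1% of the low values lay midway between 2 whole steps. How reads were divided between similar members was not tested, and no identity between members was measured.

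The summed fbxb level was lower in every hrde-1 library than in every WT library. It ranged from 6490 to 9396 RPKM in WT (median 7208) and from 4204 to 5613 in hrde-1 (median 4934). Without the 4 highest genes the sum was 2645 to 4177 in WT and 1628 to 2640 in hrde-1, which barely kept the genotypes apart. The 64 fbxb genes under 10 RPKM summed to 236 to 437 RPKM in WT and 184 to 297 in hrde-1, with overlap. The summed fbxc level was 2506 to 3807 in WT and 1592 to 2372 in hrde-1. Without its 4 highest genes the sums overlapped, with 836 to 1343 in WT and 586 to 1085 in hrde-1, and its 31 genes under 10 RPKM had almost the same range in both (85.1 to 144 and 84.9 to 145).

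**Figure D1:**
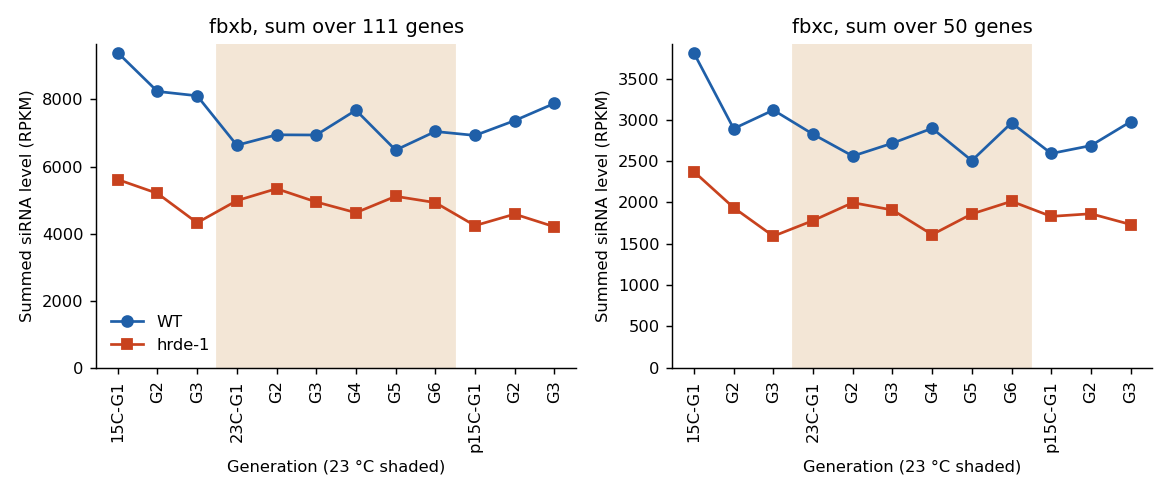
Summed siRNA level in RPKM of the 111 fbxb genes (left) and of the 50 fbxc genes (right), 1 point per library over the 12 generations, WT as blue circles and hrde-1 as red squares, with the generations at 23 °C shaded. The hrde-1 points lie below all WT points in both families (at most 5613 against at least 6490 RPKM in fbxb, and 2372 against 2506 in fbxc).

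To see which members lost siRNA in the mutant, the genotypes were compared in each phase. At 15C, 24 of 111 fbxb genes were called lower in hrde-1 and 1 higher, beside 4.1% of all tested genes lower and 3.72% higher. The median log2 fold change of the family was −0.67, against −0.19 over all genes. Among the 47 fbxb genes of at least 10 RPKM, 18 were lower and the median was −0.86, while all genes of that level had a median of 0.10. In fbxc 7 of 50 genes were lower and none was higher, with a median of −0.40. Of the 50, 24 had an unadjusted p under 0.05, beside 4163 of all 19839 tested genes.

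In the post-heat generations the counts were larger in fbxb. At p15C, 35 fbxb genes were lower and 1 was higher, beside 4.34% of all genes lower and 3.65% higher, with a family median of −0.73 and 0.07 over all genes. The fbxb genes of at least 10 RPKM had a median of −1.16, with 24 of 47 lower. In fbxc 7 genes were lower, with a family median of −0.44. At p15C the WT libraries were not the shallower ones as a group (587100 to 1048900 reads against 629400 to 693800), unlike at 15C.

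At 23 °C fewer members differed between the genotypes, most clearly in fbxb. In 23C-G1 to G3, 7 fbxb genes were lower and none was higher (median −0.08), and 3 fbxc genes were lower (median 0.13), beside 3.2% of all genes lower and 2.5% higher (median 0.14). In 23C-G4 to G6, 7 fbxb genes were lower and 2 higher (median −0.11), and 5 fbxc genes were lower (median −0.06), beside 3.18% of all genes lower and 2.68% higher (median 0.11). These counts lie nearer the background than those at 15C and p15C. The hrde-1 libraries were shallower at 23 °C (348100 to 481700 reads) than in both phases at 15 °C, while the WT libraries at 23 °C held 300600 to 719900 reads. The part of depth in the smaller counts was not tested. Among genes of at least 10 RPKM the medians were still below 0, with −0.19 and −0.42 in fbxb and −0.50 and −0.71 in fbxc for the earlier and the later generations. Of the 10 fbxc genes between 10 and 50 RPKM, 2, 1, 5 and 6 were lower in the order of the phases (medians −0.403, −0.434, −1.115 and −1.184). Of all genes of this level 5.53%, 4.86%, 5.28% and 6.36% were lower. The smaller count at 23 °C was thus not seen in these fbxc genes in 23C-G4 to G6. Of the 9 fbxc genes of at least 50 RPKM, 4, 2, 0 and 0 were lower.

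Called members at 15C and at p15C were partly the same genes, in comparisons whose means share no library. The comparisons are not independent, since 1 model gave both the same estimate of the spread and the lineages were the same. In fbxb, 20 genes were lower in both phases, which is 20 of the 24 at 15C and 20 of the 35 at p15C. In fbxc, 3 were lower in both, of 7 in each. Over all tested genes 2.58% were lower in both. Over the 4 phases 42 fbxb and 12 fbxc genes were lower at least once, beside 7.23% of all tested genes. Of the genes lower in both phases at 15 °C, 13 fbxb and 1 fbxc gene were called in neither phase at 23 °C, a pattern that 0.827% of all tested genes had. Such a pattern of calls is not a test of a difference between phases. The difference in the response to 23 °C, given below, was called in fbxb only for fbxb-94, fbxb-45, fbxb-93 and fbxb-91. The F-box A family (fbxa), another large family of the worm, had 38 of 194 genes lower and 2 higher at 15C, and 33 lower and 1 higher at p15C. In 23C-G1 to G3 it had 24 lower and 3 higher, and in 23C-G4 to G6 27 lower and 6 higher (12.4% and 13.9% of the family lower, against 6.31% of fbxb in each). These shares of fbxa and fbxb were not tested against each other.

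**Figure D2:**
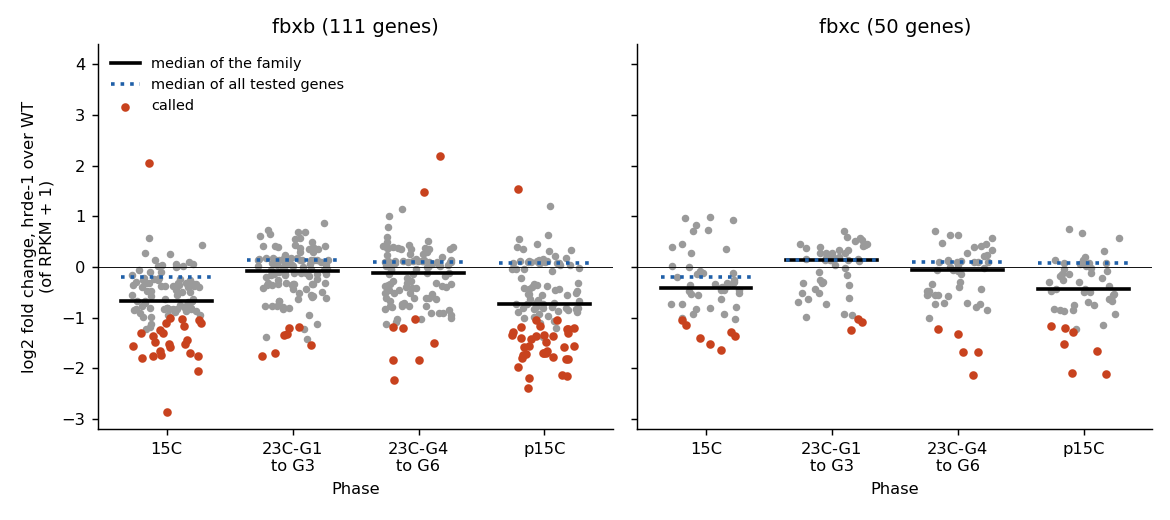
log2 fold change of RPKM + 1, hrde-1 over WT, for each fbxb gene (left) and fbxc gene (right) in the 4 phases, 1 point per gene, red where called, with the median of the family (black line) and of all 19839 tested genes (dotted blue line). The fbxb median lies at −0.67 at 15C and −0.73 at p15C, and at −0.08 and −0.11 in the phases at 23 °C.

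The genes lower in all 4 phases were fbxb-97, fbxb-7 and fbxc-42, beside 1.31% of all tested genes. For fbxb-97 on chromosome II, WT held 1609, 1683 and 1503 RPKM in 15C-G1, G2 and G3, and hrde-1 held 507, 584 and 521. In 23C-G4, G5 and G6 WT held 1046, 1008 and 965 RPKM and hrde-1 187, 289 and 180. In p15C-G1, G2 and G3 WT held 1135, 1219 and 1326 RPKM and hrde-1 411, 507 and 533. All hrde-1 libraries lay below all WT libraries of this gene, whose 12 values were 965 to 1683 RPKM against 180 to 584. The log2 fold changes were −1.57, −1.70, −2.23 and −1.35 in the order of the phases (SE 0.14 each), with adjusted p = 2e-08, 6.9e-09, 7.4e-11 and 2.3e-07. Within each genotype every library at 23 °C lay below every library at 15C.

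fbxb-7, on chromosome V, varied between 143 and 225 RPKM over the 12 WT libraries, with no order by temperature. Its WT libraries held 189, 183 and 189 RPKM at 15C and 155, 205 and 225 at p15C. Its hrde-1 libraries held 71.5, 87.3 and 68.1 RPKM at 15C and 50.0, 50.8 and 61.7 at p15C. The log2 fold changes were −1.30, −1.33, −1.83 and −1.82 (SE 0.23 each), the largest adjusted p being 0.00033. fbxc-42, which lies in the longest array on chromosome II, had WT values of 27.2, 73.9 and 35.5 RPKM at 15C and 25.3, 46.2 and 54.8 at p15C, and hrde-1 values of 15.4, 8.93 and 14.7 at 15C and 9.89, 7.26 and 8.60 at p15C. Its log2 fold changes were −1.64, −1.24, −1.68 and −2.11 (SE 0.32 each), the largest adjusted p being 0.017. The genotypes did not overlap within any of the 4 phases for fbxb-7 or fbxc-42, and each of the 12 calls of these genes and of fbxb-97 was kept with each library left out.

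fbxb-14, the gene with the most siRNA, moved far less than fbxb-97. WT held 1960, 1668 and 1748 RPKM at 15C, and hrde-1 held 1906, 1839 and 1432, so that the genotypes overlapped. In 23C-G4 to G6 WT held 2169, 1702 and 1716 RPKM and hrde-1 1287, 1258 and 1351, without overlap. At p15C WT held 1390, 1216 and 1448 RPKM and hrde-1 1002, 1141 and 1043. The log2 fold changes were −0.06 at 15C (adjusted p = 0.75), −0.13 in 23C-G1 to G3 (adjusted p = 0.78), −0.51 in 23C-G4 to G6 (adjusted p = 0.0048) and −0.34 at p15C (adjusted p = 0.07), with an SE of 0.12. None of these reached the fold of 2. The value at 15C turned to 0.00 without the WT library of 15C-G1 and to 0.07 without the hrde-1 library of 15C-G3.

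The other highest members also differed by less than the fold of 2 in most phases. fbxc-43 held 1363, 1009 and 1116 RPKM in WT at 15C and 585, 630 and 606 in hrde-1, and no library of the mutant overlapped WT within a phase. Its log2 fold changes ran from −0.93 ± 0.12 (SE, adjusted p = 3.3e-06) at 15C over −0.73 and −0.71 to −0.49 (adjusted p = 0.0064) at p15C, so that it was called in no phase although the adjusted p passed in all. fbxb-85 was called at 15C, with 892, 833 and 823 RPKM in WT against 361, 406 and 498 in hrde-1 (log2 fold change −1.02 ± 0.12, adjusted p = 9.8e-07). Its values in the other phases were −0.66, −0.61 and −0.62. fbxb-24 was the exception among the 5 highest fbxb genes, with log2 fold changes of −0.22, 0.18, 0.17 and 0.45, none of which passed the test. fbxb-100 was at −0.88 at 15C (adjusted p = 0.0034) and at −0.73 at p15C (adjusted p = 0.017).

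fbxc-44, the neighbour of fbxc-43, held 221, 196 and 192 RPKM in WT at 15C and 74.3, 116 and 108 in hrde-1 (log2 fold change −1.04 ± 0.19, adjusted p = 0.00034), and −1.03 (adjusted p = 0.00049) in 23C-G1 to G3. Both values stood just past the fold of 2. At 15C it fell to −0.98 without the WT library of 15C-G1 and to −0.85 without the hrde-1 library of 15C-G1, and in 23C-G1 to G3 to −0.95 without the WT library of 23C-G2 and to −0.85 without the hrde-1 library of 23C-G3. The pseudogenes fbxc-37 and fbxc-38 were called at 15C at −1.15 (adjusted p = 0.02) and −1.52 (adjusted p = 0.016). Both calls rested on the hrde-1 library of 15C-G3, without which they stood at −0.86 (adjusted p = 0.17) and −1.04 (adjusted p = 0.16). fbxc-39 was called in no phase.

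**Figure D3:**
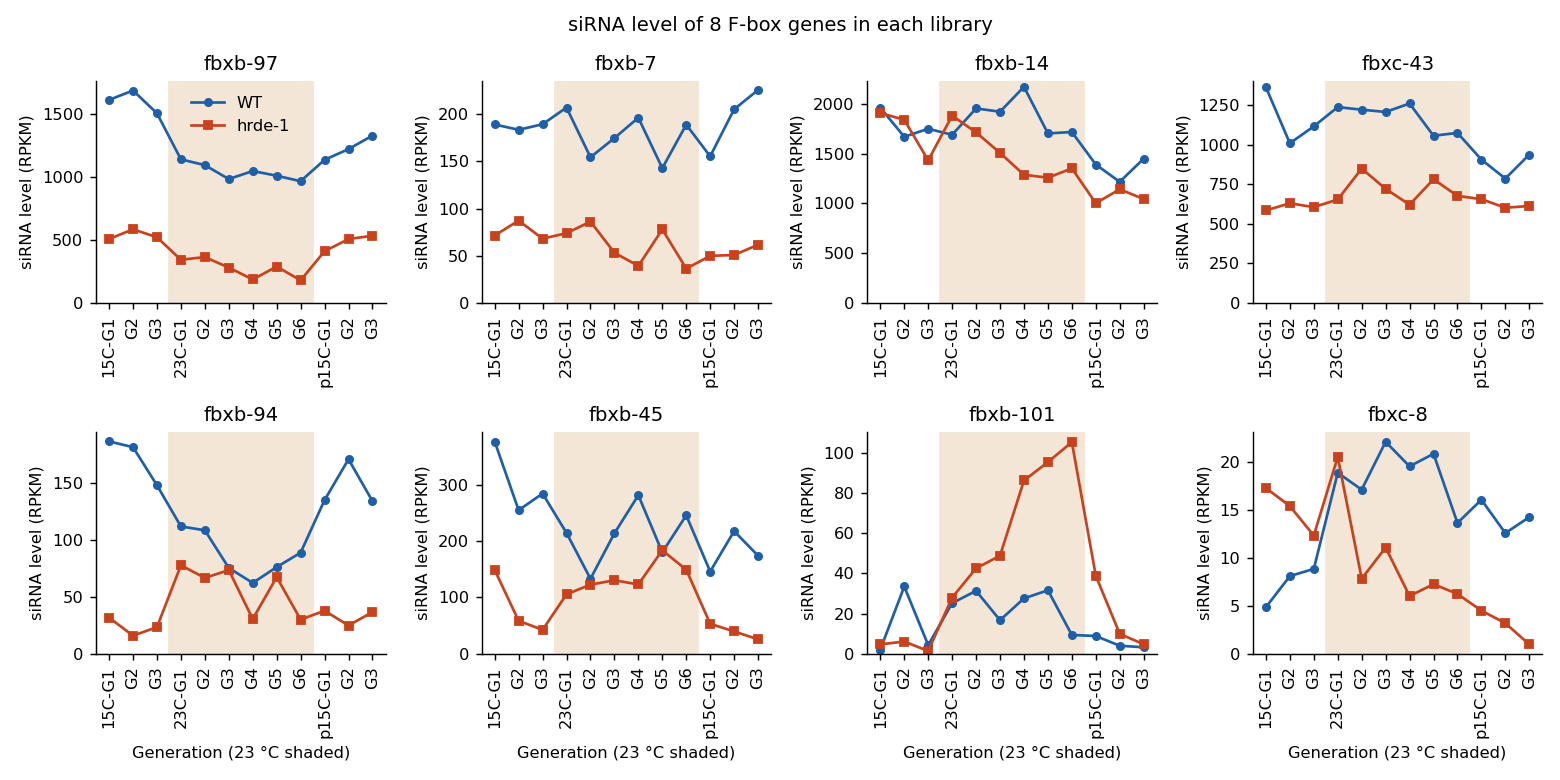
siRNA level in RPKM of 8 members in each of the 24 libraries, 1 panel per gene with its own linear axis from 0, WT as blue circles and hrde-1 as red squares, over the 12 generations with 23 °C shaded. In fbxb-97 and fbxb-7 the genotypes stay apart throughout, in fbxb-94 and fbxb-45 they approach at 23 °C, fbxb-101 climbs to 105 RPKM in hrde-1 at 23C-G6, and fbxc-8 declines in hrde-1 to 0.97 RPKM at p15C-G3.

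Large losses at 15C and p15C were in fbxb-94, fbxb-45 and fbxb-93. fbxb-94, annotated as a pseudogene on chromosome I, held 187, 182 and 148 RPKM in WT at 15C and 31.7, 15.9 and 23.4 in hrde-1 (log2 fold change −2.86 ± 0.27, adjusted p = 3.6e-08), and it was at −2.13 at p15C (adjusted p = 3.5e-06). Its neighbour fbxb-93 was at −1.66 (adjusted p = 0.0001) and −2.14 (adjusted p = 2.8e-06) in the same phases. fbxb-45 on chromosome II held 377, 255 and 285 RPKM in WT at 15C and 149, 58.4 and 42.4 in hrde-1 (log2 fold change −2.05 ± 0.33, adjusted p = 9.6e-05), and at p15C 146, 218 and 174 against 53.2, 39.6 and 25.5 (log2 fold change −2.20, adjusted p = 3.6e-05). None of the 3 genes was called in either phase at 23 °C, where their values were between −0.42 and −0.91.

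The remaining members named at 15C by the size of their change were fbxb-53 (−1.79), fbxb-107 (−1.76), fbxb-39 (−1.75), fbxb-54 (−1.74), fbxb-29 (−1.71), fbxc-23 (−1.40), fbxc-40 (−1.37) and fbxc-57 (−1.29). The calls of the last 2 depended on single libraries. fbxc-40 was at −1.14 (adjusted p = 0.18) without the WT library and fbxc-57 at −1.15 (adjusted p = 0.11) without it, in both cases that of 15C-G1, and they were at −0.67 (adjusted p = 0.37) and −0.98 (adjusted p = 0.2) without the hrde-1 library of 15C-G3. fbxc-57 also missed the threshold without the WT library of 15C-G2, at −1.14 (adjusted p = 0.11).

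At p15C the largest change was in fbxb-21, from 15.1, 26.5 and 36 RPKM in WT to 3.20, 5.28 and 3.34 in hrde-1 (log2 fold change −2.39 ± 0.55, adjusted p = 0.0044). It is 1 of 4 neighbouring genes on chromosome II, with fbxb-20, fbxb-16 and fbxb-15, and all of them were lower at p15C, with log2 fold changes of −1.70, −1.22 and −1.97. Other genes named at p15C were fbxb-107 (−1.80), fbxc-8 (−2.10), fbxc-30 (−1.67), fbxc-40 (−1.51) and fbxc-57 (−1.28). fbxb-64 was at −1.82 (adjusted p = 0.012) and lost its call without the hrde-1 library of p15C-G1, at −1.41 (adjusted p = 0.1). fbxc-26 (−1.20) and fbxc-47 (−1.17) had adjusted p of 0.084 and 0.071. fbxc-26 lost its call without any of the 3 WT libraries or the hrde-1 libraries of p15C-G2 and G3, over −0.91 to −1.33. fbxc-47 lost its call without the WT libraries of p15C-G2 and G3 or the hrde-1 libraries of p15C-G1 and G2, over −1.05 to −1.08.

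In the generations at 23 °C the losses held genes called at 15 °C and some that were not. fbxb-56, between fbxb-93 and fbxb-94 on chromosome I, held 131, 228 and 249 RPKM in WT in 23C-G1, G2 and G3 and 85.0, 92.3 and 75.7 in hrde-1 (log2 fold change −1.20 ± 0.24, adjusted p = 0.0017). In 23C-G4, G5 and G6 it held 296, 275 and 273 RPKM in WT and 76.1, 103 and 61.3 in hrde-1 (−1.83, adjusted p = 7.1e-06). Its difference at 15C was −0.86, which passed the adjusted p (0.023) but not the fold, and at p15C it was lower by the call (−1.56, adjusted p = 5.6e-05). The earlier generations also had fbxb-15 (−1.76, adjusted p = 0.00064), which was lower at 15C and p15C too (−1.43 and −1.97), and fbxc-45 (−1.08, adjusted p = 0.0034), the latter at −0.96 without the hrde-1 library of 23C-G2. fbxb-29 (−1.54, adjusted p = 0.011), lower at 15C and p15C as well, was at −1.18 (adjusted p = 0.1) without the hrde-1 library of 23C-G3. fbxb-18 (−1.32, adjusted p = 0.047) lost its call without the WT libraries of 23C-G2 and G3 or the hrde-1 libraries of 23C-G1 and G3, over −1.23 to −1.35.

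In 23C-G4 to G6 the lower members further held fbxb-67 (−1.49), fbxb-98 (−1.21), fbxb-46 (−1.02), fbxc-40 (−2.12), fbxc-47 (−1.67) and fbxc-8 (−1.32). fbxb-98 was at −0.91 and fbxc-47 at −0.93 without the hrde-1 library of 23C-G4. fbxb-46 stood at the fold of 2 and went to −0.92 without the WT library of 23C-G4 and to −1.0 and −0.99 without the hrde-1 libraries of 23C-G4 and G5. fbxb-47 (−1.19, adjusted p = 0.084) lost its call without the WT libraries of 23C-G4 and G5 or the hrde-1 library of 23C-G5, over −0.84 to −1.19. fbxc-26 (−1.23, adjusted p = 0.086) lost its call without the WT or the hrde-1 libraries of 23C-G5 and G6, over −0.62 to −1.36.

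Only fbxb-79 and fbxb-101 were called higher in the mutant in any phase. fbxb-79 on chromosome IV held 3.25, 13.3 and 3.40 RPKM in WT at 15C and 27.0, 22.4 and 27.5 in hrde-1 (log2 fold change 2.04 ± 0.40, adjusted p = 0.00091). At p15C it held 5.59, 7.83 and 5.08 RPKM in WT and 28.4, 20.9 and 12.4 in hrde-1 (1.53, adjusted p = 0.012). Both phases were without overlap. In 23C-G4 to G6 it was at 1.48 (adjusted p = 0.019), a call lost without the WT library of 23C-G6 (1.27, adjusted p = 0.1) or the hrde-1 library of 23C-G5 (1.23, adjusted p = 0.12).

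fbxb-101 on chromosome I lies between fbxb-94 and fbxb-100. In hrde-1 it held 4.64, 6.07 and 1.34 RPKM at 15C, then 27.97, 42.6, 48.9, 86.3, 95.5 and 105 over 23C-G1 to G6, and 38.9, 9.88 and 4.68 over p15C-G1 to G3. The level climbed with each generation at 23 °C and came down over the 3 generations after it. WT held 2.05, 33.5 and 4.29 RPKM at 15C, then 25.2, 31.3, 16.7, 27.6, 31.6 and 9.33 at 23 °C, and 8.83, 3.96 and 3.21 at p15C. The genotype difference in 23C-G4 to G6 was 2.18 ± 0.70 (adjusted p = 0.062), and it missed the threshold without the WT library of 23C-G6 (1.66, adjusted p = 0.28) or any hrde-1 library of 23C-G4 to G6 (2.11 to 2.25, adjusted p from 0.12 to 0.16). The neighbours fbxb-93, fbxb-56, fbxb-94 and fbxb-100 were at −0.60, −1.83, −0.91 and −0.22 in the same phase, so that only fbxb-101 of these 5 genes was higher.

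The response to 23 °C was compared within each genotype, 23C-G2 to G6 (n = 5) against 15C (n = 3), with 23C-G1 left out because it met both temperatures. In WT, 15 fbxb genes were lower at 23 °C and 4 higher, beside 2.64% of all tested genes lower and 3.94% higher, with a median of −0.21 against 0.10 over all genes. In fbxc 7 were lower and 2 higher (median −0.06). In hrde-1, 7 fbxb genes were lower and 8 higher, beside 2.7% of all genes lower and 3.71% higher, with a median of 0.27 against 0.31, and in fbxc 3 were lower and 1 higher (median 0.20). The difference of these responses between the genotypes was called in 4 fbxb genes, all more positive in hrde-1, beside 1.11% of all genes, and in 2 fbxc genes, both more negative, beside 1.41%. The family median of the difference was 0.47 in fbxb and 0.41 in fbxc, against 0.22 over all genes.

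The largest fall at 23 °C was in fbxb-107 on chromosome II. WT held 47.4, 43.9 and 33.7 RPKM at 15C, between 1.96 and 8.22 in 23C-G2 to G6 (median 5.83), and 29.6, 24.9 and 31.9 at p15C. The change at 23 °C was −2.78 ± 0.31 (adjusted p = 3.4e-06) in WT and −1.43 (adjusted p = 0.0043) in hrde-1. The hrde-1 libraries held 11.4, 10.6 and 12.6 RPKM at 15C and between 2.85 and 7.33 in 23C-G2 to G6. There 1 read per kilobase is worth 2.25 to 2.87 RPKM, so a further fall could hardly be seen. fbxb-30 fell from 25.8, 37.9 and 44.8 RPKM at 15C to between 2.91 and 10.9 in WT (−2.57, adjusted p = 0.00012), and by 1.88 on the log2 scale in hrde-1 (adjusted p = 0.003). fbxb-99 fell in WT, from 52.7, 35.1 and 41.6 RPKM to between 2.58 and 11.9 (−2.35, adjusted p = 9.2e-05). In these 3 genes no WT library of 23C-G2 to G6 reached any WT library of 15C. In hrde-1 fbxb-99 was at −0.91 (adjusted p = 0.049), under the fold of 2. The difference between the genotypes was not called for fbxb-107 (1.35 ± 0.44, adjusted p = 0.15), fbxb-30 (0.69, adjusted p = 0.47) or fbxb-99 (1.44, adjusted p = 0.18).

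Members that fell in both genotypes were fbxb-30, fbxb-40, fbxb-71, fbxb-104, fbxb-107, fbxc-25 and fbxc-28. fbxb-40 was at −1.92 in WT and −1.32 in hrde-1, fbxc-25 at −1.76 and −1.70, and fbxb-71 at −2.05 and −1.33. fbxb-71 stood at −0.84 (adjusted p = 0.22) in hrde-1 without its library of 15C-G1. fbxc-28 was at −1.68 in WT and −1.15 in hrde-1, and it lost both calls without the library of 15C-G1 of the same genotype, at −1.30 (adjusted p = 0.17) and −0.70 (adjusted p = 0.31), and the second also without the hrde-1 library of 23C-G5 (−0.90, adjusted p = 0.13). fbxb-104 was at −1.13 in hrde-1 and at −1.04 (adjusted p = 0.1) and −0.86 (adjusted p = 0.15) without the hrde-1 libraries of 15C-G1 and G2. In WT the falls further held fbxb-11 (−1.75), fbxb-39 (−1.69), fbxb-81 (−1.57) and fbxc-18 (−1.23).

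Weaker calls in the WT response rested on 1 or more libraries. fbxc-30 (−1.40) was at −1.04 (adjusted p = 0.21) and −1.35 (adjusted p = 0.1) without the WT libraries of 15C-G1 and G2. fbxc-39 (−1.01) was at −0.78 without that of 15C-G1, at −0.95 without 23C-G2 and at −0.94 without 23C-G5. fbxc-14 (−1.35) lost its call without the WT libraries of 15C-G1 and G3 or of 23C-G2, G5 and G6, over −1.12 to −1.31, and fbxc-57 (−1.04) without those of 15C-G1 and G2 or of 23C-G5 and G6, over −0.89 to −0.96. In hrde-1 fbxb-97 fell by 1.09 on the log2 scale (adjusted p = 0.0001), which became −0.99 and −0.97 without the hrde-1 libraries of 23C-G4 and G6. fbxb-31 (−1.29) and fbxc-26 (−1.17) also fell in hrde-1. fbxb-31 was at −1.16 (adjusted p = 0.1) without 15C-G3, and fbxc-26 was at −0.86 (adjusted p = 0.14) without 15C-G1 and at −0.81 without 23C-G5.

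In WT fewer fbxb members rose at 23 °C than fell, and in hrde-1 the numbers were near each other. fbxb-119 and fbxc-42 rose in both genotypes. fbxc-42 went from 27.2, 73.9 and 35.5 RPKM at 15C in WT to between 79.8 and 110 in 23C-G2 to G6 (1.16 ± 0.28, adjusted p = 0.0092), and in hrde-1 from 15.4, 8.93 and 14.7 to between 22.6 and 37.5 (1.21, adjusted p = 0.0075). It thus rose by a like amount on a lower level in the mutant, with a difference between the responses of 0.05 ± 0.40 (adjusted p = 0.96). Its rise was 0.86 in WT without the library of 15C-G1 and 0.98 in hrde-1 without that of 15C-G2. fbxb-119 was at 1.25 in WT, which was 0.85 (adjusted p = 0.21) without the library of 15C-G1, and at 1.51 in hrde-1.

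In WT fbxb-79 (1.69, adjusted p = 0.004), fbxc-8 (1.27), fbxb-47 (1.19) and fbxb-69 (1.40) also rose. The difference between the genotypes was not called for fbxb-79 (−1.01, adjusted p = 0.26), fbxb-47 (−0.81, adjusted p = 0.31) or fbxb-69 (−0.57, adjusted p = 0.66). fbxb-47 was at 0.81 (adjusted p = 0.25) without the WT library of 15C-G3. fbxb-69 (adjusted p = 0.098) lost its call without the WT libraries of 15C-G1 and G3 or of 23C-G2, G4 and G5, over 0.94 to 1.33. In hrde-1 fbxb-101 rose the most (3.99 ± 0.66, adjusted p = 0.00036), with no overlap between 1.34 to 6.07 RPKM at 15C and 42.6 to 105 in 23C-G2 to G6. Its change in WT was 1.44 (adjusted p = 0.23), and the difference between the genotypes, 2.55 ± 0.94, did not pass (adjusted p = 0.21). The calls of fbxb-37 (1.48), fbxb-29 (1.24) and fbxb-118 (1.20) in hrde-1 went to an adjusted p of 0.1 without its library of 15C-G3, at 1.41, 1.07 and 1.17. fbxb-15 (1.16) was at 0.87 without 15C-G2.

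**Figure D4:**
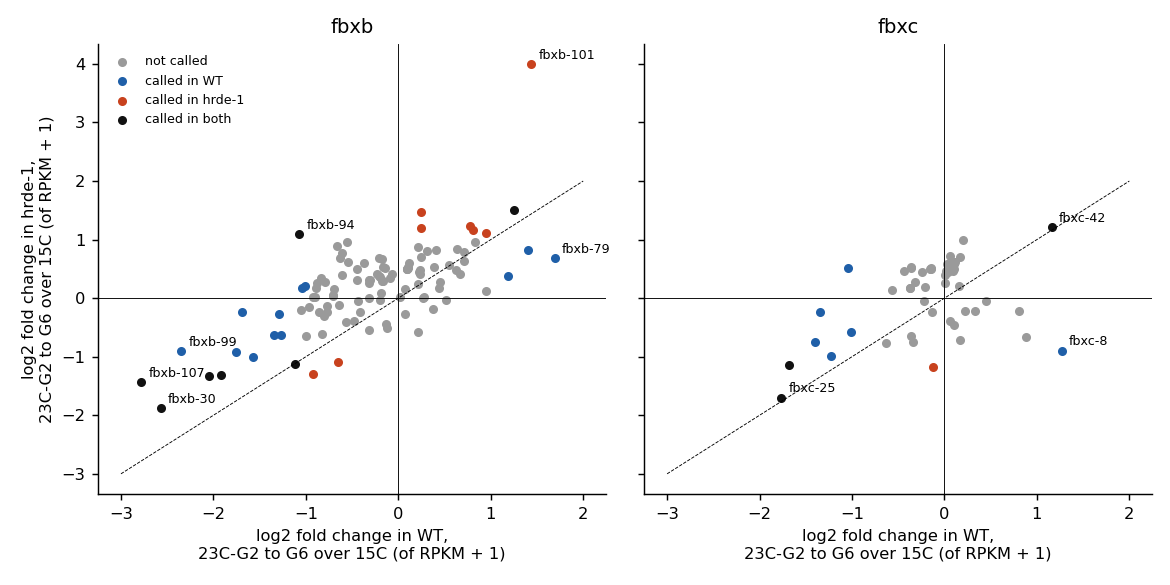
log2 fold change of RPKM + 1 at 23C-G2 to G6 over 15C in WT (horizontal) and in hrde-1 (vertical) for each fbxb gene (left) and fbxc gene (right), coloured by the genotype in which the gene was called, with the line of equal change dashed. fbxb-107 and fbxb-30 fell in both, fbxb-94 fell in WT and rose in hrde-1, fbxb-101 rose by 3.99 in hrde-1, and fbxc-8 rose in WT and lies below 0 in hrde-1.

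The response differed between the genotypes in fbxb-94, fbxb-45, fbxb-93, fbxb-91 and fbxc-8 among the members of at least 5 RPKM. fbxb-94 fell from 187, 182 and 148 RPKM at 15C to between 62.3 and 109 in WT (−1.07, adjusted p = 0.018), and it rose from 31.7, 15.9 and 23.4 to between 30.01 and 73.6 in hrde-1 (1.09, adjusted p = 0.016). The difference was 2.17 ± 0.40 (adjusted p = 0.0039). The rise in hrde-1 was between 0.85 and 0.99, under the fold of 2, without its library of 15C-G2, 23C-G2, 23C-G3 or 23C-G5, while the difference was kept. fbxb-91 was at −0.88 in WT and 0.26 in hrde-1 (difference 1.14 ± 0.26, adjusted p = 0.02), and the difference was 0.89 without the hrde-1 library of 15C-G3. fbxb-45 (1.51 ± 0.44, adjusted p = 0.088) and fbxb-93 (1.21 ± 0.35, adjusted p = 0.083) stood near the threshold. They lost it without any of 12 and 11 libraries, over 1.14 to 1.63 and 1.06 to 1.24.

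fbxc-8 on chromosome IV moved in the opposite direction to these. In WT it held 4.85, 8.09 and 8.84 RPKM at 15C, 18.9, 17.1, 22.1, 19.5, 20.8 and 13.6 over 23C-G1 to G6, and 16.1, 12.6 and 14.2 at p15C. In hrde-1 it held 17.3, 15.4 and 12.3 RPKM at 15C, 20.5, 7.82, 11.1, 6.01, 7.25 and 6.23 at 23 °C, and 4.49, 3.18 and 0.97 at p15C. The genotypes thus changed places without overlap, hrde-1 above WT at 15C (0.98 ± 0.34, adjusted p = 0.082, under the fold of 2) and below it in 23C-G4 to G6 (−1.32, adjusted p = 0.014) and at p15C (−2.10, adjusted p = 0.00011). With a pseudocount of 10 RPKM the last 2 values were −0.75 and −0.92, under the fold of 2. The responses to 23 °C were 1.27 in WT and −0.90 in hrde-1 and differed by −2.17 ± 0.40 (adjusted p = 0.0036). The other fbxc gene with a called difference, fbxc-24, was named after its values were seen (−1.55 ± 0.34, adjusted p = 0.016, mean 3.25 RPKM).

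The third question was whether levels after the heat returned to those before it, which was tested as p15C against 15C. These comparisons use the same 15C libraries as those above. In WT, 5 fbxb genes were lower and none was higher, beside 1.13% of all genes lower and 2.45% higher, and 1 fbxc gene was higher. The 5 genes, fbxb-103, fbxb-102, fbxb-35, fbxb-96 and fbxb-80, were named after their values were seen and had means of 3.14 to 4.99 RPKM. None of the 47 fbxb genes of at least 10 RPKM was called. The WT libraries were shallower at 15C, and no member was called once the floor of 1 read was taken off. As deposited, 17 of the 111 fbxb genes had an unadjusted p under 0.05. This is a smaller share than that over all genes, 6194 of 19839. The fbxc gene was fbxc-20 (1.27, adjusted p = 0.088), which lost its call without the WT libraries of 15C-G1, G2 or G3 or of p15C-G2 or G3, over 0.98 to 1.38.

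In hrde-1 no fbxb gene was called by limma at p15C against 15C, beside 0.635% of all genes lower and 1.19% higher. An unadjusted p under 0.05 was held by 9 of the 111, near the share over all genes (1939 of 19839). fbxc-8 was the only fbxc gene called, with −2.15 ± 0.31 (adjusted p = 0.00035). The difference between the genotypes was called for fbxc-8 as well, at −3.07 ± 0.45 (adjusted p = 0.0011), beside 0.428% of all genes more negative and 0.625% more positive in hrde-1, and for no other member. Both calls were kept with each library left out. With a pseudocount of 10 RPKM, near the level of this gene, the change in hrde-1 was −0.96 (adjusted p = 0.00083) and no longer reached the fold of 2, while the difference was still called. fbxb-14 was at −0.41 ± 0.12 (adjusted p = 0.088) in WT and −0.69 ± 0.12 (adjusted p = 0.0029) in hrde-1, under the fold of 2 in both. fbxb-97 was at −0.38 (adjusted p = 0.16) and −0.16 (adjusted p = 0.97).

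The calls by level, chromosome and array are given as a description, without a test. At p15C, 10 of the 19 fbxb genes of at least 50 RPKM, 14 of the 28 between 10 and 50 RPKM and 5 of the 43 under 5 RPKM were lower, beside 8.59%, 6.36% and 1.6% of all tested genes of these levels. In fbxc it was 0 of 9, 6 of 10 and 0 of 25, so that the families did not share an order by level in this phase. In the generations before the heat they did share one. There 9 of 19, 9 of 28 and 3 of 43 fbxb genes were lower, and 4 of 9, 2 of 10 and 0 of 25 fbxc genes. The shares of all tested genes of these levels were 8.62%, 5.53% and 1.32%. The order was also shared in the earlier generations under heat, and not in the later ones. In the earlier ones 3, 2 and 1 fbxb and 2, 1 and 0 fbxc genes were lower, beside 7%, 4.86% and 0.656% of all tested genes. Over all tested genes the same order by level was seen in each phase, so that it is not particular to these families. A gene near the value of 1 read cannot fall far, and the part of this in the counts was not tested.

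On chromosome II, 17 of 62 fbxb genes were lower at 15C and 21 at p15C, beside 3.92% and 3.53% of all tested genes on it, and of the 39 fbxc genes there 5 were lower in each. On chromosome I 3 and 5 of 11 fbxb genes were lower, on III 2 and 3 of 9, and on V 2 and 6 of 16. The shares of all tested genes were 4.49% and 3.84% on I, 3.58% and 3.65% on III, and 3.5% and 3.89% on V. None of the 10 fbxb genes on chromosome IV or of the 3 on X was lower in any phase. Over the phases 2.01% to 2.42% of all tested genes on IV and 5.93% to 9.45% on X were lower, so that none among so few genes is near the background. Of the fbxc genes 2 of 9 on IV were lower at p15C and both on X at 15C. Of the 76 fbxb genes in runs of neighbours 16 were lower at 15C and 30 at p15C, beside 4.1% and 4.34% of all tested genes. Of the other 35 fbxb genes it was 8 and 5. The shares inside and outside the runs were thus close at 15C and apart at p15C. In fbxc 3 and 6 of the 32 genes in runs were lower, and 4 and 1 of the other 18.

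A list of 43 SCF partners held the skr genes, cul-1 and rbx-1. It also held genes that are not SCF subunits, among them other cullins, rbx-2, csn genes and genes of ubiquitin transfer and cullin neddylation. Of the 43 genes 42 were in the table. Of these 2 were lower and 1 higher at 15C, 1 and 1 in 23C-G1 to G3, 1 and 0 in 23C-G4 to G6, and 3 and 0 at p15C, with medians of 0.03, 0.09, 0.04 and −0.02. Their siRNA thus stayed near the background of all genes in each phase. skr-3, a gene for an SKP1-related adaptor, was lower in all 4 phases (−1.19, −1.35, −2.04 and −1.71, the largest adjusted p being 0.042). skr-4, another of them, was lower at 15C (−1.70) and p15C (−2.55), and skr-7 was lower at p15C (−1.35). skr-14 was higher at 15C (1.01), as was dcn-1, which promotes cullin neddylation, in 23C-G1 to G3 (1.40). cul-1, which encodes the cullin scaffold, had values from 0.04 to 0.52, none of which passed.

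In the temperature comparisons, skr-10 fell at 23 °C in WT (−1.28, adjusted p = 0.0017), and in hrde-1 skr-14 fell (−1.12, adjusted p = 0.02) and skr-2 rose (1.17, adjusted p = 0.017). None of the 42 genes was called by limma in the other comparisons, where 4, 5, 3 and 2 of them had an unadjusted p under 0.05 (difference in the 23 °C response, p15C against 15C in WT and in hrde-1, and the difference between these). Over all 19839 tested genes these numbers were 2899, 6194, 1939 and 2191. Of 7 F-box genes outside the expanded families, such as lin-23 and sel-10, none was called between the genotypes in any phase. The number with an unadjusted p under 0.05 was 2, 2, 1 and 1 of the 7, beside 4163, 3119, 3077 and 3514 of all 19839 tested genes.

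siRNAs to marker genes of other tissues were compared beside these results. Of 18 germline genes none was called between the genotypes in any phase by limma. Among them 7, 9, 5 and 3 had an unadjusted p under 0.05, beside 4163, 3119, 3077 and 3514 of all 19839 tested genes. Their summed level was 1891 to 2330 RPKM in WT and 2381 to 2884 in hrde-1 at 15C. Of 18 sperm genes 8 were higher in hrde-1 and 1 lower at 15C, and 1 and 1 at p15C. Over all tested genes 3.72% were higher and 4.1% lower at 15C, and 3.65% and 4.34% at p15C. The summed sperm level was 196 to 266 RPKM in WT and 211 to 875 in hrde-1 at 15C. Most of the 18 are msp genes, and how reads were divided between similar genes was not tested, so they may not be separate signals. Of 2 tested muscle genes unc-87 was higher in hrde-1 in all 4 phases (4.91, 3.33, 3.92 and 5.30, the largest adjusted p being 1.6e-08) and unc-54 was lower at 15C and p15C (−2.90 and −2.33). The summed muscle level at 15C was 11.1 to 14.9 RPKM in WT and 73.1 to 77.4 in hrde-1, where nearly all of it was unc-87. Of 3 tested neuron genes unc-119 was higher in all 4 phases (1.19, 1.03, 1.14 and 2.55) and rab-3 at 15C (1.12), with sums at p15C of 95.1 to 105 RPKM in WT and 248 to 274 in hrde-1. Of 10 intestine genes 3 were lower at p15C (median −0.89), with sums of 38.2 to 49.7 against 19.5 to 21.9 RPKM, and none was called in the other phases, where none had an unadjusted p under 0.05. These are siRNA levels and do not count cells. Their part in the changes of fbxb and fbxc was not tested.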

How the data were processed

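Small RNA libraries of whole young adults, 1 per genotype and generation and all of the second biological repeat, were made by a 5′-phosphate-independent method. The deposited values are RPKM. The authors aligned reads with Bowtie 0.12.7 to the WS190 mRNA database, counted perfect antisense matches and scaled them by exon length and total reads. For reads that match several genes, the division is not stated in the sources used.

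RPKM values were used as deposited. Of 20911 transcripts the highest per gene was kept, and the 19839 genes whose mean reached 1 RPKM entered fits with limma 3.58.1 (R 4.3.3) on log2(RPKM + 1) (trend, two-sided, Benjamini-Hochberg over all tested genes), in 1 model of the 2 genotypes by 4 phases and 1 with 23C-G1 apart. The script was tested on simulated data with independent libraries, in which only well-covered genes were changed. That test therefore says nothing about low members. Calls needed a fold of 2 and an adjusted p of 0.1. Fold changes understate those of low genes.

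Members named were the called ones of at least 5 RPKM, up to 8 per family, direction and comparison, with fbxb-14, fbxb-97 and the 5 highest per family. Of the SCF list every called gene was named. The members and lists were chosen with earlier results of these data known. Alternatives were another pseudocount, filter, scaling, floor or variance model, a generation block, and each library left out. Tables and plots used python 3.11.15 and matplotlib 3.10.9.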

Additional observations from a re-analysis of the deposited data

Results flagged for a closer look

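The response to 23 °C differed between the genotypes, by limma's test of the difference, in fbxb-94 (2.17 on the log2 scale), fbxb-45 (1.51), fbxb-93 (1.21), fbxb-91 (1.14) and fbxc-8 (−2.17). The change from 15C to p15C differed in fbxc-8 (−3.07).

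Among 64 groups of the 5 libraries of 23C-G2 to G6 (32 members in each genotype), 7 held a library far from the other 4. The cut-off is one that about 1 in 20 groups of normally distributed values pass. These were fbxb-107 in hrde-1 23C-G5 (7.33 RPKM, the others 2.85 to 3.12), fbxb-104 in hrde-1 23C-G2 (10.8, the others 2.21 to 2.82), fbxb-11 in WT 23C-G5 (14.4, the others 9.10 to 10.5), fbxb-119 in WT 23C-G3 (5.67, the others 13.3 to 16.1), fbxc-25 in WT 23C-G3 (11.1, the others 5.39 to 6.23), fbxb-31 in WT 23C-G4 (6.65, the others 2.18 to 2.70) and fbxb-37 in WT 23C-G6 (306, the others 55.3 to 118). In fbxb-37 the hrde-1 library of 23C-G6 held 238 RPKM. In fbxb-107 and fbxb-104 the other 4 libraries lay near the value of 1 read, which holds them together. The number of flagged groups therefore cannot be set against the rate of 1 in 20.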

How the results depend on the processing

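Over both families together, 32, 10, 14 and 43 members were called between the genotypes in the 4 phases, 28 and 19 in the responses of WT and hrde-1 to 23 °C, 6 in their difference, and 6, 1 and 1 in the corresponding p15C comparisons. A pseudocount of 10 RPKM lowered these to 16, 5, 9 and 19, to 12 and 5, and to 0 and 0 for p15C against 15C in WT and in hrde-1. WT p15C against 15C also gave 0 among genes of at least 10 RPKM and 0 with the read floor taken off, which gave 2 in hrde-1. The difference in the p15C change gave 2 with a pseudocount of 0.5 RPKM and 2 with median-ratio scaling. The cause was not tested. With each library left out the counts ranged over 22 to 38, 8 to 13, 11 to 17, 33 to 42, 21 to 29, 16 to 24, 3 to 11, 0 to 7, 1 to 5 and 1 to 3 in the same order. The difference in the 23 °C response gave 3 without the hrde-1 library of 15C-G3 and 11 without that of 15C-G1. WT p15C against 15C gave 2, 1 and 3 without the WT libraries of 15C-G1, G2 and G3, and 0 without those of p15C-G2 or G3. Of the 102 named calls 58 were kept with every library left out.

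Of the named results 45 fell under a threshold with a pseudocount of 10 RPKM and 17 with the floor taken off. The sign of a named result turned in 2 of 1763 alternatives, both for fbxb-14 at 15C, whose value was −0.14 to 0.066 with each library left out (0.004 without the WT library of 15C-G1). Of 48 family medians between the genotypes 47 kept their sign, the exception being fbxc in 23C-G1 to G3 among genes of at least 10 RPKM (−0.50 against 0.13). The median at p15C was −0.30 in fbxb with a pseudocount of 10 RPKM and −0.91 with the floor taken off.

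The repeat label is the same in all libraries, so the generation number served as a replicate block. Deviations of same-numbered libraries correlated at −0.02 to 0.37 over 12 pairs, 10 of them over 0.1, and 9 of 12 WT libraries were matched best by their own generation. As 2 pairs did not reach 0.1 and the labels name no shared batch, the number was not taken as a pairing by design, although the data hint at one. With the replicate block 1 member was higher and 33 lower at 15C, 0 and 12 in 23C-G1 to G3, 2 and 14 in 23C-G4 to G6, and 1 and 43 at p15C, and none of 61 named genotype results changed its call.

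Depth limits the low members: 37 of the fbxb and 14 of the fbxc genes reached a mean of 5 reads. Below that a level rests on single reads and on the floor, and a difference was often not detectable.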
